A study of Mus musculus with 12 samples.

Results

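The 10 genes described here are immediate early genes: Fos, Fosb, Jun, Junb, Atf3, Egr1, Nr4a1, Ier2, Zfp36 and Dusp1. They were taken by symbol from the deposited gene count table, and all 10 were found among its 55421 gene identifiers. Immediate early genes are transcribed within minutes of a stimulus such as a growth factor, stress or wounding, by factors already present in the cell, so that their induction needs no new protein synthesis. Kinase cascades that end in ERK, JNK and p38 act on serum response factor, its ternary complex partners and CREB at their promoters, and many of the products are transcription factors that switch on later genes. Others are brakes: Dusp1 dephosphorylates the kinases and Zfp36 speeds the decay of short-lived mRNAs. In the gut, Fos and Jun family members are known for roles in epithelial proliferation, regeneration and tumour growth.

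Expression was measured by RNA sequencing of mouse small intestine, in 12 libraries that fell into 3 groups of 4. Apc Eif3h mice had VilCreER with Apc fl/fl and Eif3h fl/fl alleles, Apc mice had VilCreER with Apcfl/fl, and WT mice were labelled Wild Type. VilCreER is a Cre recombinase that tamoxifen activates, driven by the villin promoter in cells of the gut epithelium, so that floxed alleles are cut there and not in muscle, stroma or immune cells of the same tissue. Apc restrains Wnt signalling through beta-catenin, and Eif3h encodes a subunit of the translation initiation factor eIF3. For all 3 groups the labels describe 2 intraperitoneal doses of 80 mg/kg tamoxifen at an interval of 24 hours. They give day 4 for Apc Eif3h and Apc and day 7 for WT, while the treatment text gives 7 days to harvest throughout. Genotype and day can therefore not be told apart in a comparison with WT. All 4 Apc Eif3h libraries were from males, and Apc and WT each held 3 males and 1 female (Apc replicate 1 and WT replicate 4). Ages were not given. Nothing in the labels says that each library came from a different animal, so the p-values rest on variation among these libraries that may be technical.

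The 4 Apc Eif3h libraries held 14221414 to 21298301 counts each, the Apc libraries 10483112 to 18621953 and the WT libraries 13915889 to 14589963. Levels are given as CPM, counts scaled to a common library size with TMM factors that correct for library composition. The targeted gene Eif3h was at 25.9 to 54.6 CPM in Apc Eif3h, 158 to 175 CPM in Apc and 126 to 142 CPM in WT. Apc averaged 105 CPM in Apc Eif3h, 114 CPM in Apc and 94.2 CPM in WT, and counts over a whole gene do not show whether floxed exons are lost. The epithelial markers Epcam and Vil1 were at 1148 CPM or more and 1129 CPM or more in every library. Apc Eif3h replicate 2 stood apart through B cell genes, with 87.4 CPM of Ms4a1, against at most 0.334 CPM in the other 3 libraries of its group. In bulk tissue, fewer cells of a type and less RNA per cell cannot be told apart.

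Promoter letters are shown for the elements through which immediate early genes are classically switched on. Of the 10 members, 8 had an entry in the RefSeq promoter table for GRCm38.p6 (all but Egr1 and Ier2). The 250 bases before each start site were searched on both strands. The letters TGACG, the short form of the cyclic AMP response element, here called the short site, bound by CREB and ATF proteins, were in 6 of 8 (Fos, Fosb, Junb, Atf3, Dusp1 and Nr4a1) and in 17.8% of all 32851 promoter windows of that length. The whole palindrome TGACGTCA, which contains the short site on each strand, was in 1 of 8 (Dusp1) and in 1.55% of all windows. The CArG box, the core of the serum response element, was in 1 of 8 (Zfp36) and in 1.47% of all windows. The letters GCGNGGGCG, bound by EGR proteins, were in 3 of 8 (Fosb, Zfp36 and Nr4a1) and in 4.70% of all windows. The AP-1 letters TGANTCA were in 0 of 8 and in 6.75% of all windows. The GC box GGGCGG, which can share bases with the EGR letters, was in 7 of 8 (all but Junb) and in 32.7% of all windows. A match describes letters in this window and is not a measured binding site. Elements farther from the start or with variant letters were not searched for, so a missing match does not show that a gene lacks the element. The 4 sequences below, from RefSeq, hold the most short sites of the 8 windows (Nr4a1), 2 short sites (Fos), the whole palindrome (Dusp1) and the CArG box (Zfp36). Capitals mark the cyclic AMP response element or its short site, the EGR letters and the CArG box, on either strand. Nr4a1 is shown at chr15:101266596-101266845 on the plus strand, Fos at chr12:85473640-85473889 on the plus strand, Dusp1 at chr17:26508520-26508722 on the minus strand (the part of its window outside annotated exons) and Zfp36 at chr7:28379267-28379296 on the minus strand (30 bases around the CArG box, inside an annotated Zfp36 exon).
Nr4a1: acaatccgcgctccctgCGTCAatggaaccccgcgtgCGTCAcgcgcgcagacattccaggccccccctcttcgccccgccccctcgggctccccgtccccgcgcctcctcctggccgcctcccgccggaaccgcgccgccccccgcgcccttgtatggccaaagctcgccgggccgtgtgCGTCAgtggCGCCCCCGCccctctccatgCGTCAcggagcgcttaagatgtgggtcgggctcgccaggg
Fos: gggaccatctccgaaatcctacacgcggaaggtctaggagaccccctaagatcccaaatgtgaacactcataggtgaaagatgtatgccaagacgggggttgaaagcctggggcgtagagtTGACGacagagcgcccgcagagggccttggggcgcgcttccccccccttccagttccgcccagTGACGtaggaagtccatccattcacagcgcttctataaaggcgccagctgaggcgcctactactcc
Dusp1: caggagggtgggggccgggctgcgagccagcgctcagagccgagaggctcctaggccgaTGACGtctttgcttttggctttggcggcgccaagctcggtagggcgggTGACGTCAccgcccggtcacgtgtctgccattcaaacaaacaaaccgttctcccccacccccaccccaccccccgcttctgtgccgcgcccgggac
Zfp36: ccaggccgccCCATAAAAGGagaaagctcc
The Nr4a1 window held 4 short sites and 1 EGR match, and the Dusp1 palindrome lay 143 to 136 bases before the start.

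All 10 members were expressed in all 12 libraries and passed the filter on low counts. Fosb was the weakest at 11 to 99 counts a library, and the other 9 had 38 counts or more in every library. As a level per kilobase of exon, the members formed an upper tier of Ier2, Junb, Fos, Zfp36 and Jun and a lower tier of Egr1, Atf3, Dusp1, Nr4a1 and Fosb in all 3 groups. In Apc Eif3h the means were 55.2 CPM per kb for Ier2, 48.1 for Junb, 43.0 for Fos, 38.3 for Zfp36 and 36.4 for Jun, then 7.41 for Egr1, 4.57 for Atf3, 3.51 for Dusp1, 3.37 for Nr4a1 and 0.344 for Fosb. In Apc they were 57.3 CPM per kb for Fos, 45.3 for Junb, 44.6 for Ier2, 36.9 for Zfp36 and 33.2 for Jun, then 10.8 for Egr1, 5.93 for Atf3, 4.17 for Dusp1, 2.94 for Nr4a1 and 0.324 for Fosb. In WT they were 65.5 CPM per kb for Zfp36, 57.4 for Junb, 48.9 for Fos, 38.8 for Ier2 and 33.2 for Jun, then 8.10 for Atf3, 3.92 for Dusp1, 2.79 for Egr1, 1.39 for Nr4a1 and 0.589 for Fosb. The tiers did not overlap between libraries of a group. Most neighbours within a tier did overlap, and the exceptions were Egr1 above Atf3 and Nr4a1 above Fosb in Apc Eif3h, Fos above Junb and Nr4a1 above Fosb in Apc, and Atf3 above Dusp1 in WT.

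The comparison of Apc with WT asks what the members do when Apc is lost from the epithelium. By edgeR's quasi-likelihood test with Benjamini-Hochberg adjustment over 17394 genes, 3 of 10 members were called at an adjusted p below 0.05: Egr1 and Nr4a1 were higher, and Zfp36 was lower. Over all genes tested 51.8% were called, 27.7% higher and 24.1% lower, so the share of members called (30%) was below that background. Libraries of the groups did not overlap for 3 members, the same 3, against 48.8% of all genes tested. With Eif3h also lost, Apc Eif3h against WT gave 5 of 10 calls: Egr1, Nr4a1 and Ier2 were higher, and Zfp36 and Atf3 were lower. All 5 were free of overlap between libraries. The background there was 57.8% called, 29.8% higher and 28.1% lower, and 47.7% of genes without overlap. These comparisons share the WT libraries and so are not independent. Apc Eif3h against Apc sets the loss of both genes against the loss of Apc alone, and 0 of 10 members were called by edgeR, with a background of 7.05% called (4.27% higher and 2.78% lower). At an unadjusted p below 0.05 there were 2 members, Egr1 and Ier2, against 23.5% of all genes tested, and DESeq2 called 1, Ier2, against 10.2% of the genes to which it gave an adjusted p. Of the 10, 1 (Ier2) had no overlap between these groups, against 15.2% of all genes. The median log2 fold change of the members was 0.05 in Apc against WT and -0.17 in Apc Eif3h against WT, and it was 0.04 between Apc Eif3h and Apc, beside -0.01, -0.03 and -0.00185 over all genes tested. Scaling by library totals alone moved the all-gene median to 0.22, 0.17 and -0.03, and the share of calls that were higher from 53.5% to 74.0%, from 51.5% to 67.5% and from 60.6% to 49.8% in the same order of comparisons. All values here are relative to TMM scaling, and no called member changed direction between the scalings.

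**Figure D1:**
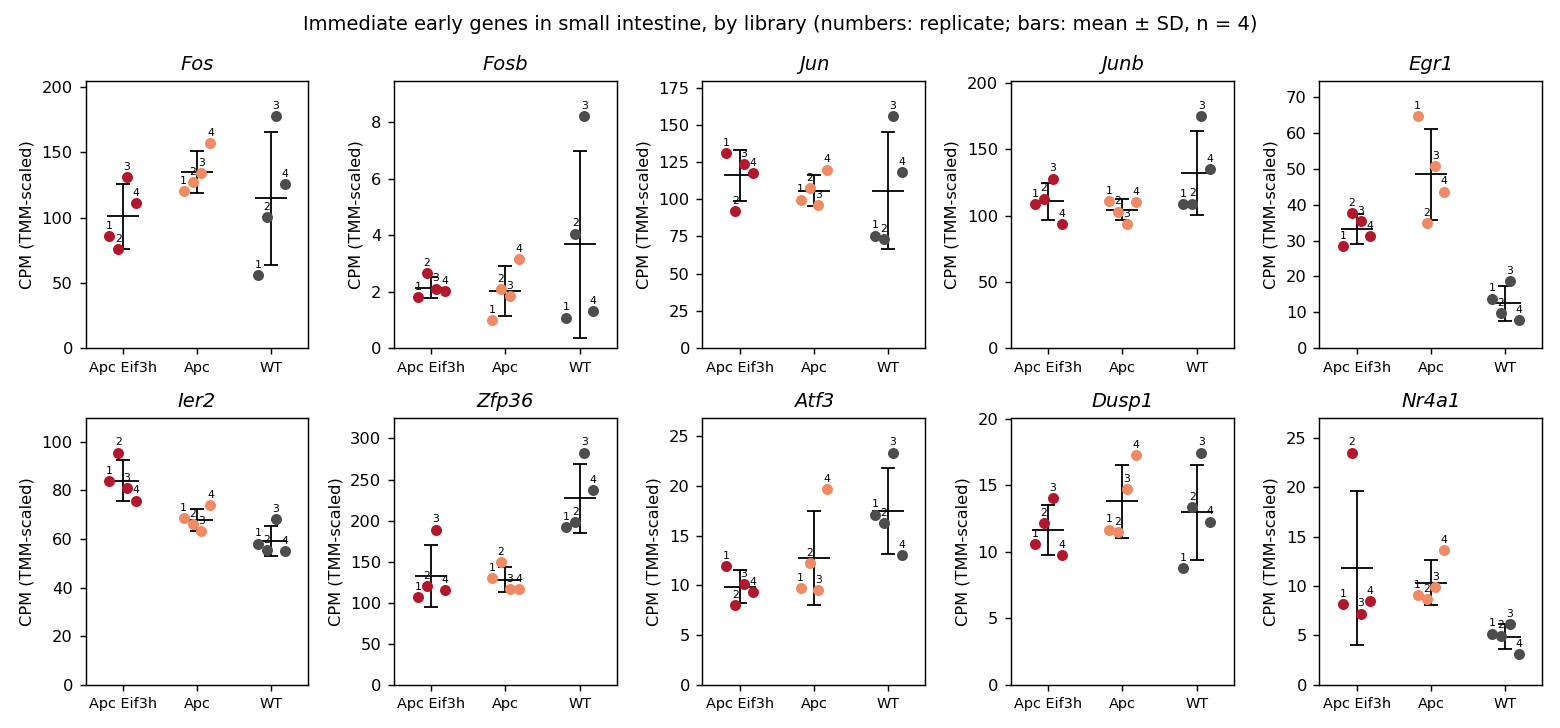
CPM of each immediate early gene (y axis, TMM-scaled, each panel from 0) in the 4 Apc Eif3h, 4 Apc and 4 WT libraries, with replicate numbers at the points and bars for the mean and SD. Egr1 and Nr4a1 lie higher and Zfp36 lower in every Apc Eif3h and Apc library than in any WT library, and WT replicate 3 is the highest WT point in all 10 panels.

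Egr1 showed the largest change of the 10 against WT. It encodes a zinc finger transcription factor that is a standard readout of ERK signalling (chromosome 18, 34859823 to 34864984, plus strand, GRCm38). Egr1 was at 28.5, 37.7, 35.4 and 31.3 CPM in Apc Eif3h replicates 1 to 4, at 64.8, 34.8, 50.7 and 43.7 CPM in Apc and at 13.8, 9.76, 18.7 and 7.74 CPM in WT. Every Apc Eif3h and Apc library lay above every WT library, and the libraries of Apc Eif3h and Apc overlapped. Apc was 3.88-fold higher than WT (log2 fold change 1.95, SE 0.25, adjusted p = 7.24e-05), and Apc Eif3h was 2.66-fold higher than WT (1.41, SE 0.25, adjusted p = 0.000455). Between Apc Eif3h and Apc the log2 difference was -0.54 (SE 0.24, 95% interval -1.06 to -0.03), with an unadjusted p of 0.0394 and an adjusted p of 0.189, so it was not called. In 19 of 19 alternative fits, Egr1 kept both calls against WT, with log2 fold changes of 1.24 to 1.67 for Apc Eif3h and 1.62 to 2.21 for Apc.

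Nr4a1 encodes Nur77, an orphan nuclear receptor induced by growth factors and by antigen receptors in lymphocytes (chromosome 15, 101254269 to 101274795, plus strand). It was at 8.15, 23.5, 7.20 and 8.44 CPM in Apc Eif3h, at 9.08, 8.68, 9.90 and 13.6 CPM in Apc and at 5.19, 4.98, 6.16 and 3.13 CPM in WT. Apc Eif3h replicate 2, the library with B cell genes, stood far above the other 3 of its group, and all WT libraries were lowest. Apc was 2.13-fold higher than WT (log2 fold change 1.09, SE 0.37, adjusted p = 0.0265), and Apc Eif3h was 2.42-fold higher (1.28, SE 0.37, adjusted p = 0.0105). Without Apc Eif3h replicate 2 the log2 fold change of Apc Eif3h against WT was 0.71 (adjusted p = 0.0164), and that of Apc Eif3h against Apc turned to -0.38 (adjusted p = 0.322) from 0.19 (adjusted p = 0.788). The call in Apc against WT was lost among males only (0.98, adjusted p = 0.0980) and without WT replicate 2 (1.10, adjusted p = 0.0525), WT replicate 4 (0.93, adjusted p = 0.0769) or Apc replicate 4 (0.92, adjusted p = 0.0788). Egr3, a primary response gene outside the 10, was likewise high in Apc Eif3h replicate 2, at 10.9 CPM against 1.37 to 1.65 CPM in the other 3 libraries of the group (a gene named after its values were seen). Among Apc Eif3h libraries, replicate 2 was also highest for macrophage and neutrophil markers (385 CPM against 179 to 201 CPM) and T cell markers (161 CPM against 92.4 to 118 CPM), and lowest for epithelial markers (6378 CPM against 7778 to 8930 CPM). The part of these cells in the Nr4a1 and Egr3 values was not tested.

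Zfp36 encodes tristetraprolin, which binds AU-rich elements of cytokine and immediate early mRNAs and recruits the decay machinery (chromosome 7, 28376784 to 28380253, minus strand). It was at 106, 121, 189 and 116 CPM in Apc Eif3h, at 129.9, 149, 117 and 116 CPM in Apc and at 192, 198, 283 and 237 CPM in WT. Every WT library lay above every other, and Apc Eif3h replicate 3 came closest to the WT range. Apc was at 0.564 times the WT level (log2 fold change -0.83, SE 0.18, adjusted p = 0.00225), and Apc Eif3h at 0.585 times (-0.77, SE 0.18, adjusted p = 0.00285). Zfp36 held both calls in 19 of 19 alternatives. It averaged 133 ± 37.9 CPM in Apc Eif3h and 128 ± 15.5 CPM in Apc (SD, n = 4 each), a log2 difference of 0.05 (95% interval -0.34 to 0.44, adjusted p = 0.894). An antisense gene, Gm44710, shares 125 exon bases with Zfp36 and was at or below 0.627 CPM in all libraries.

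Ier2, a short intronless gene whose product is a nuclear regulator of transcription (chromosome 8, 84661331 to 84662852, minus strand), was the member with the most even levels. It was at 83.7, 95.5, 80.8 and 75.8 CPM in Apc Eif3h, at 68.5, 66.0, 63.2 and 73.8 CPM in Apc and at 58.1, 55.3, 68.0 and 55.0 CPM in WT. The lowest Apc Eif3h library lay above the highest of both other groups, while Apc and WT overlapped. Apc Eif3h was 1.42-fold higher than WT (log2 fold change 0.51, SE 0.09, adjusted p = 0.000633), a call kept in 19 of 19 alternatives. Against Apc it was 1.24-fold (0.31, SE 0.09, 95% interval 0.11 to 0.51), with an unadjusted p of 0.00593 and an adjusted p of 0.0668, and it was called only by DESeq2 (adjusted p = 0.0425) and without WT replicate 3 (adjusted p = 0.0476) among the 19 alternatives. Apc against WT gave 0.20 (SE 0.09, adjusted p = 0.0913), and this became a call under library totals (0.43, adjusted p = 0.00300) and without WT replicate 3 (0.27, adjusted p = 0.0273).

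Among the AP-1 members, which pair through leucine zippers to bind DNA, Atf3 was the only one of 5 called in any comparison. Atf3 is a stress-induced partner of Jun proteins that often acts as a repressor (chromosome 1, 191170296 to 191218039, minus strand). Its levels were 11.97, 7.98, 10.1 and 9.33 CPM in Apc Eif3h, 9.71, 12.2, 9.52 and 19.7 CPM in Apc and 17.1, 16.3, 23.4 and 13.02 CPM in WT. Apc Eif3h lay below WT in every library, and Apc reached into the WT range through replicate 4 alone. Apc Eif3h was at 0.564 times the WT level (log2 fold change -0.83, SE 0.24, adjusted p = 0.0112). Apc against WT was not called (-0.44, SE 0.24, adjusted p = 0.139) but was without Apc replicate 4 (-0.73, adjusted p = 0.0125). Apc Eif3h against Apc gave -0.39 (95% interval -0.91 to 0.14, adjusted p = 0.361).

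Fos, the inducible partner of Jun in AP-1 (chromosome 12, 85473890 to 85477273, plus strand), was at 86.0, 76.2, 131 and 111 CPM in Apc Eif3h, 121, 127, 134 and 157 CPM in Apc and 56.0, 100.1, 178 and 126 CPM in WT. The WT libraries spanned the range of both other groups. Fos was not called in Apc against WT (log2 difference 0.23, 95% interval -0.36 to 0.82, adjusted p = 0.496), in Apc Eif3h against Apc (-0.42, -1.01 to 0.18, adjusted p = 0.386) or in Apc Eif3h against WT (-0.19, -0.78 to 0.41, adjusted p = 0.583).

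Fosb, a Fos relative known for stable splice forms in neurons (chromosome 7, 19302696 to 19310051, minus strand), was at 1.80, 2.66, 2.11 and 2.01 CPM in Apc Eif3h, 0.980, 2.09, 1.85 and 3.17 CPM in Apc and 1.08, 4.06, 8.23 and 1.32 CPM in WT. Its WT libraries differed 7.59-fold among themselves, the widest spread of the 10. The log2 difference was -0.80 (95% interval -1.94 to 0.33, adjusted p = 0.214) in Apc against WT, 0.04 (-1.13 to 1.20, adjusted p = 0.976) in Apc Eif3h against Apc and -0.77 (-1.90 to 0.36, adjusted p = 0.224) in Apc Eif3h against WT.

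Jun, the core AP-1 subunit and a substrate of JNK (chromosome 4, 95049034 to 95052222, minus strand), was at 131, 92.0, 124 and 118 CPM in Apc Eif3h, 99.8, 107, 96.2 and 119.9 CPM in Apc and 75.5, 73.1, 156 and 118 CPM in WT. Means of 106 CPM in Apc and 106 CPM in WT gave a log2 difference of 0.00222 (95% interval -0.45 to 0.46, adjusted p = 0.994). The difference was 0.13 in Apc Eif3h against Apc (-0.32 to 0.59, adjusted p = 0.751) and 0.13 in Apc Eif3h against WT (-0.32 to 0.59, adjusted p = 0.604). WT libraries varied most, with replicate 3 at more than the level of any other library.

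Junb, an AP-1 subunit that often opposes Jun (chromosome 8, 84974484 to 84978718, minus strand), was at 108, 113, 128 and 93.6 CPM in Apc Eif3h, 111, 103, 93.5 and 110.0 CPM in Apc and 109, 109, 175 and 135 CPM in WT. The 3 groups overlapped. Apc against WT gave a log2 difference of -0.34 (95% interval -0.66 to -0.02, adjusted p = 0.0674), and the call was made without WT replicate 1 (-0.43, adjusted p = 0.0331) or WT replicate 2 (-0.42, adjusted p = 0.0351). Apc Eif3h against Apc gave 0.09 (-0.23 to 0.40, adjusted p = 0.771), and Apc Eif3h against WT -0.26 (-0.57 to 0.06, adjusted p = 0.151). Junb shares 173 exon bases with Prdx2 on the other strand, which was at 207 to 279 CPM, and without a stated strand setting reads from this stretch cannot be assigned to either gene. Jun likewise shares 232 bases with its antisense gene Junos, which was at 0.582 to 1.56 CPM.

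Dusp1, the phosphatase that ends p38, JNK and ERK signals (chromosome 17, 26505590 to 26562128, minus strand), was at 10.6, 12.2, 14.02 and 9.78 CPM in Apc Eif3h, 11.7, 11.5, 14.7 and 17.3 CPM in Apc and 8.76, 13.4, 17.5 and 12.3 CPM in WT. The groups overlapped throughout. The log2 difference was 0.09 in Apc against WT (95% interval -0.35 to 0.54, adjusted p = 0.714), -0.25 in Apc Eif3h against Apc (-0.69 to 0.19, adjusted p = 0.485) and -0.16 in Apc Eif3h against WT (-0.60 to 0.29, adjusted p = 0.530). Dusp1 shares 11 exon bases with Ergic1 on the other strand, which was at 97.2 to 128 CPM in Apc Eif3h, 90.9 to 113 CPM in Apc and 46.2 to 68.1 CPM in WT.

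**Figure D2:**
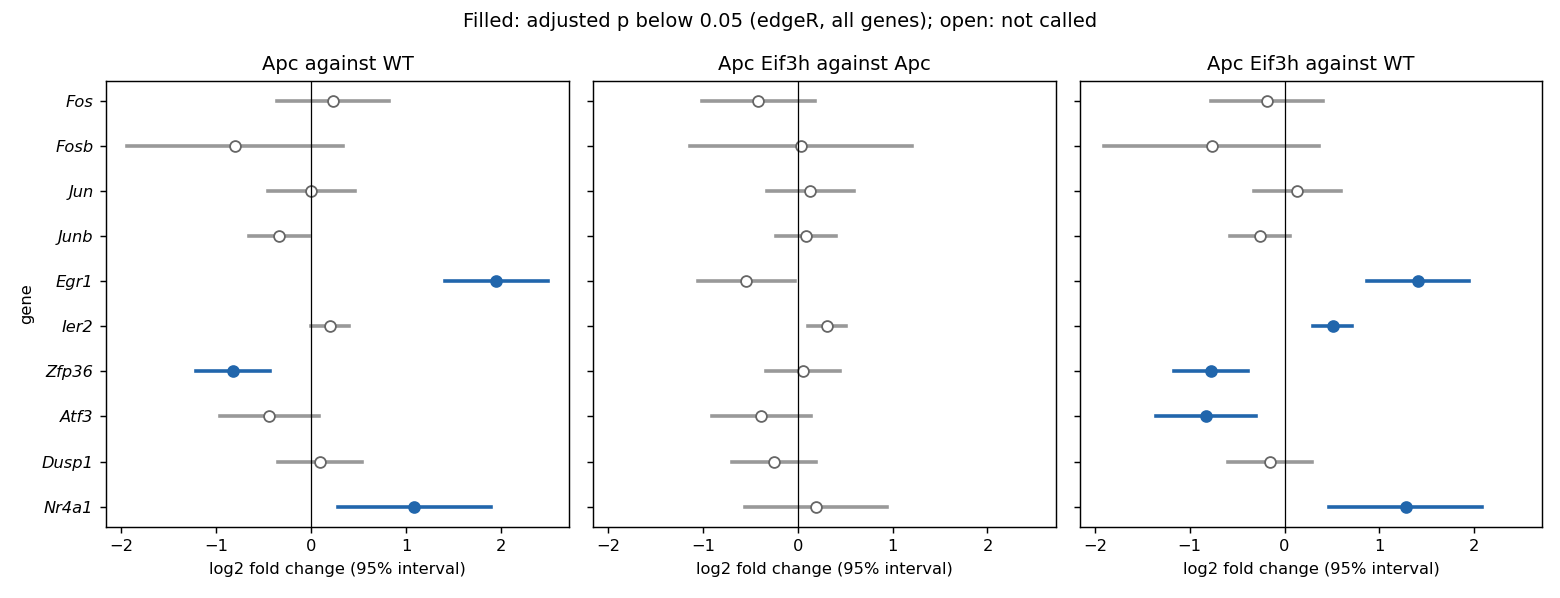
Log2 fold changes of the 10 genes (x axis, bars for 95% intervals) for Apc over WT (left), Apc Eif3h over Apc (middle) and Apc Eif3h over WT (right), filled where the adjusted p is below 0.05. Egr1 has the highest value against WT in both outer panels (1.95 and 1.41), Fosb has the widest intervals, and no gene is filled in the middle panel.

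Inside WT and Apc, but not inside Apc Eif3h, the same library was the highest for most members. WT replicate 3 was the highest WT library for 10 of 10 members, and WT replicate 1 was the lowest for 5 and WT replicate 4 for 4. The share of all tested genes that were highest in a given library was not computed, so such orders cannot be called particular to the members. On the log2 CPM scale, averaged over the 10 members, WT replicate 3 lay 0.59 above its group and WT replicate 1 lay -0.32 from it. Apc replicate 4 was the highest Apc library for 7 of 10 members (mean deviation 0.25). In Apc Eif3h the highest library was replicate 2 for 4 members, replicate 3 for 4 and replicate 1 for 2, and mean deviations stayed between -0.11 and 0.11. In the same libraries, summed epithelial markers were 10535 CPM in WT replicate 3 and 7519 to 9637 CPM in the other WT libraries, and smooth muscle markers 3290 CPM against 2115 to 2432 CPM. Fibroblast, endothelial, T cell, and macrophage and neutrophil sums were lowest in WT replicate 3 among WT libraries, at 1321, 167, 159 and 235 CPM, while heat shock genes summed to 1627 CPM there and 1408 to 2058 CPM in the others. The part of these in the members' levels was not tested.

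The spread was uneven among the members. Within WT, the SD of log2 CPM was 1.32 for Fosb, larger than for 99.0% of tested genes, 0.70 for Fos (94.5%), 0.55 for Egr1 (89.7%) and 0.53 for Jun (88.4%), where the median gene had 0.21. Ier2 had 0.14 in Apc Eif3h, 0.09 in Apc and 0.14 in WT, below the median genes of each group at 0.23, 0.18 and 0.21. Nr4a1 in Apc Eif3h had 0.78 (94.8%), which rested on replicate 2. With group means taken out, 42 of 45 pairs of members were positively correlated over the 12 libraries, with a median Pearson r of 0.44 and a range of -0.24 to 0.80, the highest being Fos with Jun. Without WT replicate 3, 27 of 45 pairs were positive, with a median r of 0.18, so the shared movement rested largely on that library. Against the mean of the other 9, Dusp1 followed most closely (r = 0.82, Spearman's rho 0.73), then Fosb (0.77, 0.60), Junb (0.74, 0.50) and Ier2 (0.70, 0.46), and the least close were Zfp36 (0.39, 0.28), Egr1 (0.34, 0.02) and Nr4a1 (0.24, 0.35). These are descriptions over libraries that share tissue makeup and depth within a library, with no test and no pairs of other genes beside them.

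Of 14521 tested genes outside the members (predicted models left out), the 5 most like the members' mean by this measure were Stk40 (r = 0.91, rho 0.65), Hmgcs1 (0.90, 0.73), Ccdc71l (0.90, 0.73), Zswim4 (0.89, 0.69) and Ptger4 (0.88, 0.55). Ptger4 encodes a prostaglandin E2 receptor and Hmgcs1 an enzyme of cholesterol synthesis. Ptger4 was at 30.6, 28.6, 29.5 and 29.6 CPM in Apc Eif3h, 27.0, 29.4, 31.3 and 39.9 CPM in Apc and 25.96, 30.3, 47.1 and 33.1 CPM in WT, highest in Apc replicate 4 and WT replicate 3. Without those 2 libraries, which were farthest from the median of the members' mean, r was 0.55 to 0.72 over the 5 genes. The group means in that step still included the 2 libraries, which can raise r. The 5 genes were also picked for the highest r in these same libraries, so the values do not show a likeness apart from those 2.

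**Figure D3:**
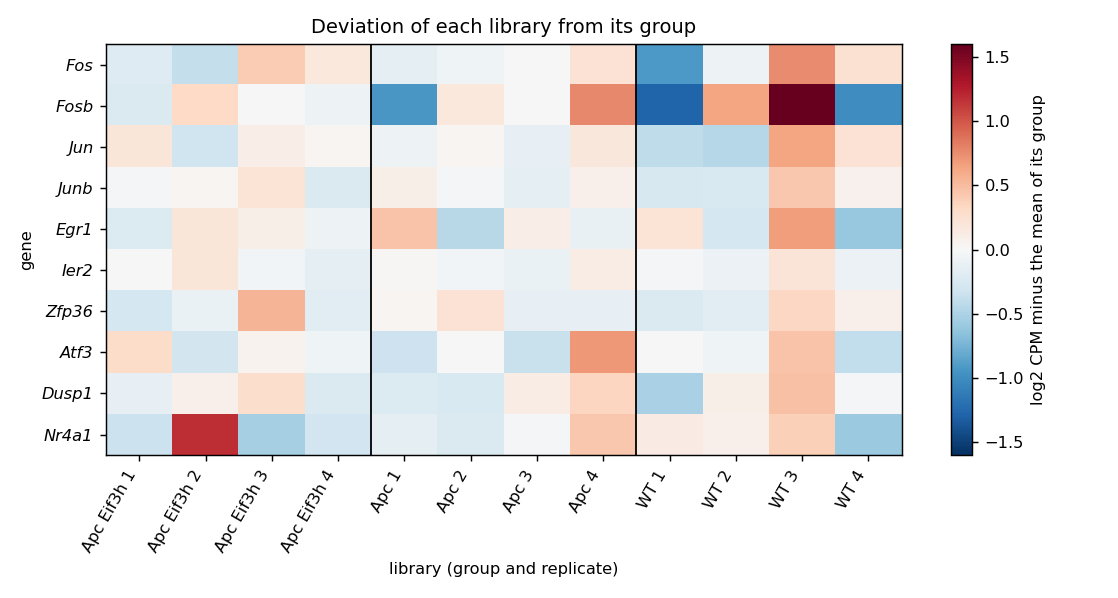
Log2 CPM of each immediate early gene (rows) in each library (columns, Apc Eif3h, Apc and WT replicates 1 to 4) minus the mean of its group, in red above and blue below. The WT replicate 3 column is red for all 10 genes, and Nr4a1 in Apc Eif3h replicate 2 is the darkest cell outside the Fosb row.

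Other genes of the pathway were read from 6 lists. Of 11 tested AP-1 and bZIP partners, 4 were called in Apc against WT. The small Maf protein gene Mafg (log2 fold change 0.38, adjusted p = 0.00233) and Atf7 (0.34, adjusted p = 0.00884) rose, while Mafk (-0.85, adjusted p = 0.000148) and Batf3 (-0.87, adjusted p = 0.0255) fell. Against WT, Apc Eif3h libraries had Mafg (0.53) and Jund (0.50) higher and Mafk (-0.73) and Batf3 (-0.80) lower, and the Batf3 calls were lost in 6 and 8 of 19 alternatives. Between Apc Eif3h and Apc 0 of 11 were called by edgeR and 0 by DESeq2, with 1 at an unadjusted p below 0.05. The share called, 36.4% in both comparisons with WT, was below the background of all genes (51.8% for Apc and 57.8% for Apc Eif3h). Between Apc Eif3h and Apc that background was 7.05%.

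Of 50 other primary response genes, 15 were higher and 13 lower in Apc against WT, with a median log2 fold change of 0.16. The share called was 56.0%, near the 51.8% of all genes tested. Myc, a Wnt target and growth regulator, was at 117, 91.6, 63.4 and 95.1 CPM in Apc Eif3h, 107, 68.6, 98.8 and 103 CPM in Apc and 23.3, 22.0, 17.9 and 14.5 CPM in WT. All Apc Eif3h and Apc libraries lay above all WT libraries, with log2 fold changes of 2.27 in Apc (adjusted p = 1.11e-05) and 2.24 in Apc Eif3h (adjusted p = 5.95e-06). The matricellular gene Ccn1 rose by 1.45 in Apc and 1.48 in Apc Eif3h, and the kinase gene Pim3 by 1.02 and 0.78. Nfkbiz, which encodes an atypical member of the I kappa B family, fell, with -1.12 in Apc Eif3h and -0.90 in Apc. Of the 50, Apc Eif3h against WT gave 14 higher and 9 lower (46.0% called, against 57.8% of all genes tested). Between Apc Eif3h and Apc 7.05% of all genes tested were called. Apc Eif3h against Apc gave 1 call of 50, Ier5, a relative of Ier2, at 75.3, 83.7, 82.4 and 62.4 CPM in Apc Eif3h, 53.5, 49.9, 41.5 and 43.2 CPM in Apc and 83.4, 55.6, 114 and 63.1 CPM in WT. Apc lay below the other groups in every library. The log2 fold change of Apc Eif3h against Apc was 0.69 (SE 0.19, adjusted p = 0.0484), and that of Apc against WT was -0.75 (adjusted p = 0.00599). The first of these calls was lost in 14 of 19 alternatives.

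Markers of immune, muscle and stromal cells were lower in many cases in the comparisons with WT. Zfp36 was called lower in both comparisons, and Atf3 in Apc Eif3h against WT only. Called lower in Apc Eif3h against WT were 7 of 10 T cell markers, 5 of 7 macrophage and neutrophil, 6 of 10 smooth muscle, 8 of 10 endothelial, 8 of 10 fibroblast and 7 of 9 enteric neuron and glia markers tested. Of all genes tested 28.1% were called lower there and 24.1% in Apc against WT. In Apc against WT the counts were 10 of 10, 5 of 7, 6 of 10, 6 of 10, 3 of 10 and 5 of 9 in the same order. B and plasma cell markers gave 1 higher and 1 lower of 8 tested in Apc Eif3h against WT (median log2 fold change 1.39) and 1 lower of 8 in Apc against WT (median -1.29). T cell markers summed to 92.4 to 161 CPM in Apc Eif3h, 80.4 to 129.8 CPM in Apc and 159 to 496 CPM in WT. Macrophage and neutrophil markers summed to 179 to 385 CPM in Apc Eif3h, 210.0 to 255 CPM in Apc and 235 to 679 CPM in WT. Fibroblast markers summed to 847 to 1017 CPM in Apc Eif3h, 1066 to 1577 CPM in Apc and 1321 to 2277 CPM in WT. Smooth muscle and enteric neuron and glia sums in every Apc Eif3h and Apc library lay below those of every WT library, and the other sums overlapped with WT in at least 1 group. Of all these markers, Ly6g was the one at 0 in every library of a group, WT. The part of these cells in the fall of Zfp36, Atf3 and Nfkbiz was not tested.

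The lists around the brakes Zfp36 and Dusp1 moved unequally. Of 10 genes of the ZFP36 family and of AU-rich mRNA binding and decay, 6 rose and 2 fell in Apc against WT (80.0% called, median log2 fold change 0.45), whereas Zfp36 itself fell. The list was not restricted to genes that speed decay, so its rise is not a measure of decay. Over all genes tested 51.8% were called there and 57.8% in Apc Eif3h against WT. Its relative Zfp36l2 (0.65, adjusted p = 0.000448) and the AU-rich element binding proteins Khsrp (0.61) and Hnrnpd (0.55) were among those that rose. Auh (-0.57) fell, and Xrn1 was called lower (-0.23), a call lost in 11 of 19 alternatives and turned to 0.00539 (adjusted p = 0.961) under library totals. With Eif3h also lost, 7 rose against WT, led by Hnrnpd (0.85), Elavl1 (0.70) and Khsrp (0.61), and the same 2 fell (90% called). Of 11 other dual specificity phosphatases, 4 rose and 2 fell in Apc against WT (54.5% called, near the share of all genes). The ERK phosphatase Dusp4 (1.91, adjusted p = 1.47e-05), Dusp16 (0.47), Dusp7 (0.70) and the weakly expressed Dusp9 (2.69, at 2.46 CPM in Apc and 0.380 CPM in WT) rose, and Dusp5 (-0.84) and Dusp6 (-0.39) fell, the Dusp6 call being lost in 8 of 19 alternatives and the Dusp7 call in 4. Of these phosphatases, 6 rose in Apc Eif3h against WT, with Dusp16 at 0.86, Dusp4 at 1.66 and Dusp9 at 3.47, and 1 fell, Dusp5 at -0.45, which was lost in 8 of 19 alternatives. The share called there was 63.6%. Dusp16, a JNK phosphatase, was also the 1 of 11 called in Apc Eif3h against Apc (9.09%, against 7.05% of all genes tested). It was at 121, 111, 138 and 144 CPM in Apc Eif3h, 87.7, 108, 98.1 and 96.9 CPM in Apc and 72.2, 71.9, 71.8 and 66.2 CPM in WT, with no overlap between any 2 groups (log2 fold change 0.39, SE 0.09, adjusted p = 0.0270, lost in 7 of 19 alternatives).

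Of 25 upstream kinases and SRF, ternary complex and CREB factors, 6 were higher and 6 lower in Apc against WT, with a median of -0.03. The share called was 48%, against 51.8% of all genes tested. Creb1, whose product binds cyclic AMP response elements, rose by 0.36 (adjusted p = 0.00057), and the kinase genes Mapk3, which encodes ERK1 (-0.53), and Map2k3 (-0.35) fell, each losing its call in 1 of 19 alternatives. Among the other calls in this comparison, Atf1 was lost in 15 of 19 alternatives, Mapk7 in 14, Map2k4 in 13 and Mrtfb in 8. Map2k7 was lost in 6, Srf in 5, Mapk8 in 3, Map2k1 in 2 and Map2k2 in 2. Apc Eif3h against WT gave 5 higher, Atf1 (0.65), Creb1 (0.40), Mapk14 (0.27), Mapk7 (0.37) and Srf (0.25), and 5 lower, Mapk3 (-0.74), Map2k4 (-0.37), Mapk8 (-0.47), Elk4 (-0.24) and Map2k1 (-0.27). The share called was 40%, against 57.8% of all genes tested. The Map2k1 call was lost in 15 of 19 alternatives, Elk4 in 8, Srf in 5 and Map2k4 in 1, and library totals gave -0.06 for Map2k1 and -0.03 for Elk4. Of the same 25, Apc Eif3h against Apc gave 3 calls (12%, against 7.05% of all genes tested). The CREB relative Atf1 rose (0.39, adjusted p = 0.0389), and the p38 kinase gene Map2k6 (-0.58, adjusted p = 0.0378) and the SRF coactivator gene Mrtfb (-0.44, adjusted p = 0.0336) fell, each lost in 11 of 19 alternatives. Heat shock genes, which encode chaperones and their partners, not all of them induced by protein stress, gave 7 higher and 1 lower of 12 in both comparisons with WT. The 4 not called in either were Hspa1a, Hspb1, Dnaja1 and Dnajb1, and Hspa1b lost its call in Apc against WT in 12 of 19 alternatives. The share called was 66.7% in both, beside 51.8% of all genes for Apc and 57.8% for Apc Eif3h. Hspd1 rose by 1.19 in Apc and 1.56 in Apc Eif3h, Hsp90aa1 by 1.36 and 1.33 and Hsp90ab1 by 1.14 and 1.31, and Bag3 fell (-0.56 and -0.64). Their sum was 3271 to 3862 CPM in Apc Eif3h, 2793 to 3525 CPM in Apc and 1408 to 2058 CPM in WT. Between Apc Eif3h and Apc, 0 of 12 heat shock genes and 0 of 10 genes of AU-rich mRNA binding and decay were called by edgeR. Each list had 2 at an unadjusted p below 0.05 and 1 called by DESeq2.

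**Figure D4:**
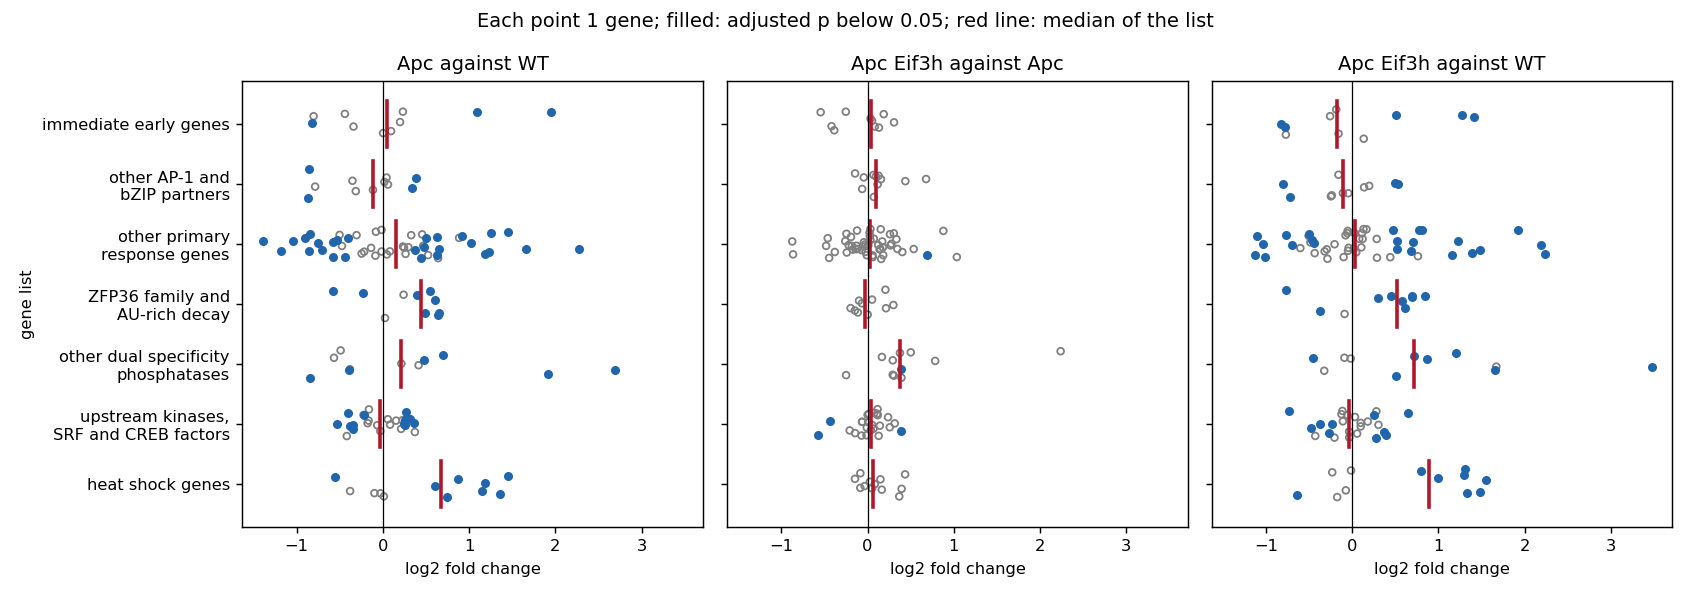
Log2 fold changes (x axis) of the immediate early genes and of 6 related gene lists (rows) in the 3 comparisons, each point 1 gene, filled where the adjusted p is below 0.05, with a red line at the median of the list. The medians of the ZFP36 family and AU-rich decay list (0.45) and of the heat shock genes (0.67) lie right of 0 in Apc against WT. The immediate early genes straddle 0 there (0.05), and few points are filled in Apc Eif3h against Apc.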

How the data were processed

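Whole-number read counts per gene, not normalized by the authors, were deposited for 12 libraries. Per the submitters' processing notes, the authors used GRCm38, featureCounts 1.6.4, HISAT2 2.1.0, Trim Galore 0.6.4 and FastQC 0.11.8. The sources used here do not give the annotation release, the strand setting or the handling of reads with several matches. Reads had 36 cycles from each end, so close relatives and opposite-strand neighbours may share reads. Of 55421 identifiers, 55154 matched GENCODE M21, which gave symbols, coordinates and exon lengths.

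Counts were fitted with edgeR 4.0.16 in R 4.3.3 (filterByExpr, TMM factors, quasi-likelihood, 1 mean per group over all 12 libraries) in 3 comparisons, with Benjamini-Hochberg adjustment over 17394 tested genes. Standard errors are the log2 fold change over the square root of F, and intervals use the t distribution. Levels are mean ± SD of 4 libraries, and log2 CPM used a prior count of 2. The fit was tested on simulated data. Alternatives included DESeq2 1.42.0, other scalings, males only, a replicate block and leaving out each library. Correlations and promoter letters were computed in Python 3.11.15. The members and lists were chosen with earlier results of these data known. All 10 members are named, and of each list up to 3 called genes of smallest p per comparison plus any count of 5 or fewer, with the exceptions stated. The text uses part of these names.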

Additional observations from a re-analysis of the deposited data

Results flagged for a closer look

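Nr4a1 in Apc Eif3h replicate 2, at 23.5 CPM, lay far above the other 3 libraries of its group, which had 8.15, 7.20 and 8.44 CPM. The gap to the next library was 0.924 of the group's whole range. Of 30 sets of 4 libraries examined (10 genes in 3 groups) 1 stood out in this way, and chance alone gives about 1 in 20. The same library held 462 CPM of Ighm and 83.8 CPM of Cd79a, against 8.56 to 10.7 CPM of Ighm and 1.68 to 1.87 CPM of Cd79a in the other Apc Eif3h libraries. It was also highest of its group for summed macrophage and neutrophil markers (385 CPM against 179 to 201 CPM) and T cell markers (161 CPM against 92.4 to 118 CPM), and lowest for epithelial markers (6378 CPM against 7778 to 8930 CPM). The part of these cells in its Nr4a1 level was not tested.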

How the results depend on the processing

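Over 19 alternatives, the 10 members kept their side of the threshold in 190 of 190 values of Apc Eif3h against WT, 181 of 190 of Apc against WT and 188 of 190 between Apc Eif3h and Apc, and no called value changed direction. In Apc against WT the 2 members called higher became 1 among males only, and 1 to 3 when a library was left out (3 without WT replicate 3, through Ier2), and the 1 called lower became 1 to 2. In Apc Eif3h against Apc the 0 called higher became 1 with DESeq2 and 0 to 1 when a library was left out (1 without WT replicate 3). The cause was not tested. Over all genes, library totals alone gave 2393 lower calls in place of 4192 in Apc against WT, 3175 in place of 4882 in Apc Eif3h against WT, and 485 in place of 743 higher calls in Apc Eif3h against Apc. In that last comparison males only gave 400 higher and 259 lower calls and no filter on low counts gave 306 lower calls in place of 483. Leaving out a library gave 242 to 1152 higher and 164 to 615 lower calls there (lowest for both without Apc replicate 3, highest for both without Apc Eif3h replicate 3). The labels do not say that same-numbered libraries pair. Their deviations correlated above 0.1 in 0 of 4 numbers for Apc with WT, 1 of 4 for Apc Eif3h with WT and 2 of 4 for Apc Eif3h with Apc. The best correlation was with the own number in 0, 1 and 2 of 4, too few numbers to show whether a pairing existed. With a replicate block the members' calls were 2 higher and 1 lower, 3 and 2, and 0 and 0 in these comparisons, as without it, and calls over all genes were 4681 and 4078, 5049 and 4804, and 594 and 399. Fosb had the fewest counts of the members, at 11 to 99 a library.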
